A study of Rattus norvegicus with 20 samples.

Results

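The promoters occupied by the p65 subunit of NF-kB were compared between rat liver taken 1h after partial hepatectomy and liver removed at 0h, in animals fed a carbohydrate diet. The 1h group (CHO_1h) held 3 arrays of remnant liver, from the right median, right lateral and caudate lobes. The 0h group (CHO_0h) held 3 arrays of the lobes taken out at the operation, the left lateral and median lobes. All were wild-type male Sprague Dawley rats aged 8 to 10 weeks, given for 5 weeks a liquid diet in which carbohydrate stood in for the ethanol calories of the littermates' diet, then a 70% hepatectomy. These 6 arrays were chosen by the time and diet in the sample titles, out of 20 arrays that also covered an ethanol diet and 6h. The label of the biological source named 0h and replicate 1 on all of them, so the titles, descriptions and lobes were followed. Chromatin was sheared to 500 bp, precipitated with a rabbit polyclonal antibody to p65 and hybridised with a reference DNA to a promoter tiling array of 713735 probes. The labels give input DNA as the reference in 1 field and IgG-precipitated DNA in another. In whole tissue, more cells with p65 at a promoter and more p65 per cell cannot be told apart.

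NF-kB is a family of dimeric transcription factors held in the cytoplasm by inhibitors such as IkB alpha, the product of Nfkbia. After hepatectomy, Kupffer cells of the remnant release TNF and IL-6, early signals of liver regeneration. TNF receptor signalling through Traf2, Ripk1 and the IkB kinases frees p65 to enter the nucleus, where it binds kappa B sites at genes for cytokines, survival factors and its own inhibitors. The first wave of transcription in the remnant, the immediate early genes, includes Jun, Egr1, Btg2 and Igfbp1.

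Time was not the only difference between the groups. By their identifiers the 20 arrays fell into 4 sets, called array runs here, and all 3 CHO_0h arrays lay in run 1, which held no 1h array. CHO_1h replicate 1 lay in run 2, and replicates 2 and 3 in run 3. All 3 CHO_1h arrays were at sub-array position 3 and all 3 CHO_0h arrays at position 2. Within the carbohydrate diet, time, array run, sub-array position and removed or remnant lobe cannot be told apart. The deposited log2 ratios were multiplied by -1, because 99.9% or more of the authors' peaks on each of the 6 arrays lay below 0 in them, and each array was centred on its median. The direction is therefore likely rather than settled, and turning the sign back would mirror each difference below in the same window. Over all probes, pairs of CHO_1h arrays correlated at 0.419 to 0.596 (Pearson's r, across probes, which are not independent replicates) and pairs of CHO_0h arrays at 0.281 to 0.520. CHO_0h replicate 3 stood apart, with 0.012, 0.108 and -0.012 against the 3 CHO_1h arrays. The labels number biological replicates without naming separate cultures or litters, so the p-values measure the spread between these samples. CHO_1h replicate 1 and CHO_0h replicate 2 shared an animal number, and the main test below treated them as separate samples.

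The 250 bases upstream of the start of 6 promoters, printed from RefSeq (GRCr8), show what the arrays read. Starts in RefSeq and in the files may differ. The first 4 are promoters at which the probes inside this stretch differed between the groups, and the last 2 are the promoter of a large rise and that of an NF-kB inhibitor that fell, each with a known type of motif. Capitals mark the 6 motifs searched on either strand: the kappa B consensus, a stricter form of it (which it overlaps), TGANTCA and TGACGTCA (AP-1 and CREB sites), the CArG box bound by serum response factor, and TGCNCNC (core of the metal response element).
Vtn: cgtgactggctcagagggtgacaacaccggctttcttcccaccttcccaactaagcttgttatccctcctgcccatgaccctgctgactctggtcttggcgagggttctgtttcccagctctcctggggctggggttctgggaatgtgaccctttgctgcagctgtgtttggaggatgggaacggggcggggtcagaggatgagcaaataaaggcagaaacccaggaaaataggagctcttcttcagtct
Acacb: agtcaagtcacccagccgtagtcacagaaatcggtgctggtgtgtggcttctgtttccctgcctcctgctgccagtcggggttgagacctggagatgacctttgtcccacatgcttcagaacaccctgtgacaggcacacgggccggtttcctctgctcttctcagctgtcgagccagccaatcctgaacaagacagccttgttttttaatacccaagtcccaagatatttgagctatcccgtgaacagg
Serpina3n: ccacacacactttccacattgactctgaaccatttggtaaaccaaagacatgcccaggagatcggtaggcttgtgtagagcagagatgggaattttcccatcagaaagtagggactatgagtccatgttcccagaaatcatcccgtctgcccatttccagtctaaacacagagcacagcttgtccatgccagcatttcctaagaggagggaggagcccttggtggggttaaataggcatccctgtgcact
Tnf: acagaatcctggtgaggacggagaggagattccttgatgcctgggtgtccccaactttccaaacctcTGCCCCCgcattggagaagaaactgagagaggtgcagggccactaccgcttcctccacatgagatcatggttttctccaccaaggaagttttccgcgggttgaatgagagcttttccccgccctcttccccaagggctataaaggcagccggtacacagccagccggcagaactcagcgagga
Egr1: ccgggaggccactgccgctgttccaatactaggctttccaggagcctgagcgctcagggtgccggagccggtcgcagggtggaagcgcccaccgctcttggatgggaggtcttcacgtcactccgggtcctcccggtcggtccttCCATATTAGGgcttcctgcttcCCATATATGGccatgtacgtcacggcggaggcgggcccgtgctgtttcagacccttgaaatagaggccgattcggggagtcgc
Nfkbiz: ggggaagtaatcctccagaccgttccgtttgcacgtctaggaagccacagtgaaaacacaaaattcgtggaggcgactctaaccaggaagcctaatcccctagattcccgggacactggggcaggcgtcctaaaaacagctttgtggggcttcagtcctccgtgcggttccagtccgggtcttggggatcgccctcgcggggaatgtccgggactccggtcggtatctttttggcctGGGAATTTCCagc
They lie at chr10:63892532-63892781 (+ strand), chr12:48138215-48138464 (- strand), chr6:129088142-129088391 (+ strand), chr20:3626435-3626684 (+ strand), chr18:26736828-26737077 (+ strand) and chr11:58251471-58251720 (+ strand). Vtn, Acacb and Serpina3n held none of the 6 motifs here, Tnf held 1 TGCNCNC match, Egr1 held CArG boxes at -105 and -83, and Nfkbiz held a kappa B match at -13. Among the 10690 promoters with a RefSeq sequence of this length, 3.77% held the kappa B consensus, 1.43% its stricter form, 5.80% TGANTCA, 2.19% TGACGTCA, 1.09% a CArG box and 49.1% TGCNCNC. Only 79.2% of named promoters that rose and 76.9% of those that fell, as called below, had a sequence, against 80.6% of all named promoters. Motifs are therefore not compared between them here. Among promoters with a sequence, 2.83% rose and 5.05% fell where G and C made up under 40% of it. At 50 to 60% G and C the shares were 13.1% and 1.60%. The part of base composition in the calls was not tested.

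Each promoter was read as the 500 bp window of its tiled region with the highest mean over the 20 arrays, for 14540 promoters. Signal rose at 1256 of them at 1h, 8.64% of those tested, and fell at 358, 2.46% (limma, Benjamini-Hochberg adjusted p under 0.05). The median difference was 0.54 log2 among those that rose, -0.47 among those that fell and 0.07 over all promoters. On 1216 of the 1256 the 3 CHO_1h arrays lay above the 3 CHO_0h arrays without overlap, as they did on 21.4% of all promoters, and on 348 of the 358 they lay below, as on 9.55% of all. Higher signal made up 77.8% of the calls, 55.6% with arrays scaled to the same spread and 67.2% after quantile normalization. The balance turned when the mean of the whole tiled region was tested, with 1929 promoters higher and 3114 lower, and when the window with the lowest mean was, with 84 and 751. The median absolute deviation of probes was 0.345, 0.272 and 0.197 log2 on the CHO_1h arrays, against 0.190, 0.156 and 0.196 on the CHO_0h arrays. Its part in the balance was not tested beyond these settings. Without CHO_1h replicate 1, 2 or 3 the rises numbered 670, 240 or 1190 and the falls 229, 66 or 140, and without CHO_0h replicate 1, 2 or 3 the rises numbered 597, 421 or 871 and the falls 215, 184 or 79. With the array run as a term 0 promoters passed upwards and 5 downwards, and 0 passed in either direction with sub-array position as a term (limma, with 864 and 1078 at an unadjusted p under 0.05). The 5 were Il20, Rnf2, Gmps, Syn1 and an unnamed promoter, chosen here after their values were seen, and none was among the 1614 calls. The run term raised the median standard error to 0.241, against 0.142 without it, and for this contrast it rests on 1 array, the 0h ethanol array of run 2.

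Arrays outside this contrast were read at the same promoters. At the 1256 promoters that rose, the median window signal was 0.54, 0.56 and 0.42 log2 on the CHO_1h arrays, against -0.04, -0.05 and -0.02 on the CHO_0h arrays. In ethanol-fed rats it was 0.42, 0.42 and 0.38 at 1h, against 0.07, 0.49 and -0.03 at 0h. The 0h array with 0.49 was ethanol 0h replicate 2, in run 2, on the slide that also held CHO_1h replicate 1 and ethanol 1h replicate 1. That array lay as high as the 1h arrays, and the 5 other arrays of 0h, all in run 1, lay near 0. On that slide CHO_1h replicate 1 was above ethanol 0h replicate 2 at 747 of the 1256 (59.5%, against 44.6% of all promoters) and at 103 of the 358 that fell (28.8%). CHO_1h replicate 1 was in the contrast that chose the promoters, so the choice favours this split and the shares are no independent check. Ethanol 1h replicate 1 and ethanol 0h replicate 2, of the same slide and the same animal number, gave a median difference of -0.07 at the 1256, and 36.5% of them were higher at 1h, against 38.6% of all promoters. CHO_1h replicate 1 and CHO_0h replicate 2 also shared an animal number, but not a run, and there 99.9% of the 1256 and 1.12% of the 358 were higher at 1h, against 71.9% of all. Both of these arrays were in the contrast that chose the promoters, so these shares follow from the choice. At the later time, 6h, whose arrays lay in runs 3 and 4, the medians at the 1256 were 0.18 to 0.31 in carbohydrate-fed and 0.06 to 0.19 in ethanol-fed rats. These comparisons were chosen after the data were seen.

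**Figure D1:**
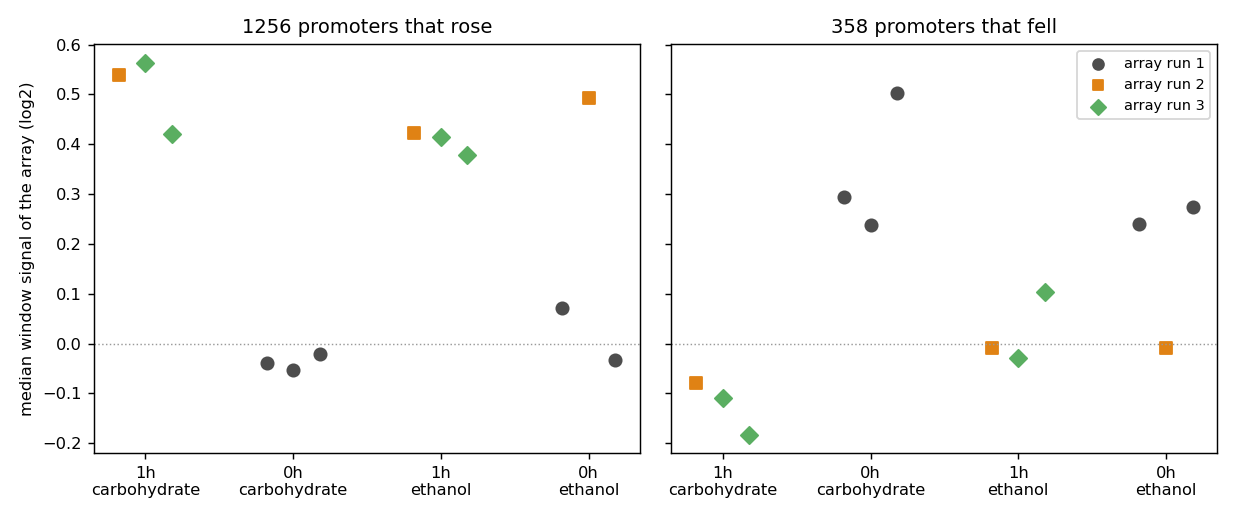
Median window signal (log2, vertical axis) of each array at the 1256 promoters that rose and the 358 that fell, with 3 arrays a group and the marker showing the array run. At the promoters that rose, the ethanol 0h array of run 2 lies at 0.49, among the 1h arrays (0.38 to 0.56), and the 5 arrays of 0h in run 1 lie between -0.05 and 0.07.

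The largest rise was at Errfi1, which encodes an inhibitor of the EGF receptor. Its window had 2.17, 1.87 and 1.32 log2 on the CHO_1h arrays, against 0.06, 0.33 and -0.25 on the CHO_0h arrays (1.74 ± 0.32 SE, adjusted p = 0.00385 in limma). It was located at chr5:168011827-168012202 in the coordinates of the files, whose build is not given in the sources used here, with its centre at -668 bp from the start. No CHO_1h array came near a CHO_0h array at this promoter, and the ethanol 0h array of run 2 had 2.00. Egr1, an immediate early zinc finger transcription factor, had 1.67, 1.60 and 1.31, against 0.19, 0.08 and -0.52 (1.61 ± 0.28, adjusted p = 0.00216). Its window at chr18:27344654-27344944 was centred 881 bp downstream of the start, and the stretch printed above averaged 0.26, 0.26 and 0.04 at 1h, against 0.09, 0.15 and 0.10 at 0h over 2 probes. The difference at Egr1 thus lay inside the gene and not over its CArG boxes, and ethanol 0h replicate 2 had 1.35 there. Crp, an acute phase protein of hepatocytes, had 1.31, 1.68 and 1.01, against -0.27, -0.05 and 0.06 (1.42 ± 0.23, adjusted p = 0.0019), and ethanol 0h replicate 2 had 1.31. The metallothionein promoter of Mt1 and Mt2A, genes for zinc-binding proteins that rise in the acute phase response, had 0.80, 1.90 and 1.19, against 0.01, 0.08 and 0.19 (1.21 ± 0.23, adjusted p = 0.00454). Here ethanol 0h replicate 2 had 0.39, below all 3 CHO_1h arrays.

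Rises of more than 1 log2 were also found at the promoter of the Ras effector Rin1 (1.33 ± 0.21) and at those of Camkk1, a kinase upstream of AMPK (1.17 ± 0.29), Pbld1 (1.12 ± 0.18), the shared promoter of the splicing regulator Esrp2 and the lysosomal phospholipase Pla2g15 (1.08 ± 0.23), Anxa8, an annexin (1.07 ± 0.27), and Actg1, a cytoplasmic actin (1.07 ± 0.20). The promoter shared by Sarm1, Sebox and Vtn had 1.00, 1.26 and 0.78 at 1h, against 0.07, -0.01 and -0.18 at 0h (1.05 ± 0.23, adjusted p = 0.00707). Vtn encodes vitronectin, a plasma protein made by hepatocytes, and its start lay nearest to the window. The Vtn stretch printed above averaged 0.94, 1.13 and 0.70 at 1h, against -0.18, -0.32 and -0.46 at 0h. Insig1, which restrains the SREBP pathway of sterol synthesis, had 0.93, 1.53 and 0.92, against 0.14, 0.07 and 0.07 (1.03 ± 0.20, adjusted p = 0.00454). With the array run as a term the sign turned at the Esrp2, Vtn and Insig1 promoters, and at none of the 12 did the rise pass.

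The largest fall was at Rybp, a component of Polycomb complexes. Its window had -0.34, 0.07 and -0.10 on the CHO_1h arrays, against 0.79, 1.22 and 1.11 on the CHO_0h arrays (-1.16 ± 0.19, adjusted p = 0.0019). The tiled region began at -136 bp, and the window at chr4:135152672-135153158 was centred at 512 bp. Ethanol 0h replicate 2 had -0.07 there, on the side of the CHO_1h arrays. Ahr, the receptor for dioxin-like compounds, had 0.11, -0.09 and -0.23, against 0.55, 0.64 and 0.87 (-0.76 ± 0.15, adjusted p = 0.00503). At Ahr ethanol 0h replicate 2 had 0.93, on the side of the CHO_0h arrays and 0.83 above CHO_1h replicate 1 on the same slide. The direction at Ahr also held with the run as a term (-1.20), without passing, and turned in a 1000 bp window (0.29). Fut8, the core fucosyltransferase, fell by 0.80 ± 0.16, Stx18, a SNARE protein of the endoplasmic reticulum, by 0.75 ± 0.16, and Cul3, a ubiquitin ligase scaffold, by 0.69 ± 0.14. The rest of the 12 largest falls were at Wdfy2, S100vp, Mkks and Rfxap and at the chemosensory receptor genes Or51ac3, Or1e26b and Vom2r43, by 0.68 to 0.94. The CHO_1h arrays lay below the CHO_0h arrays without overlap at all 12, a property that the choice of these promoters required.

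**Figure D2:**
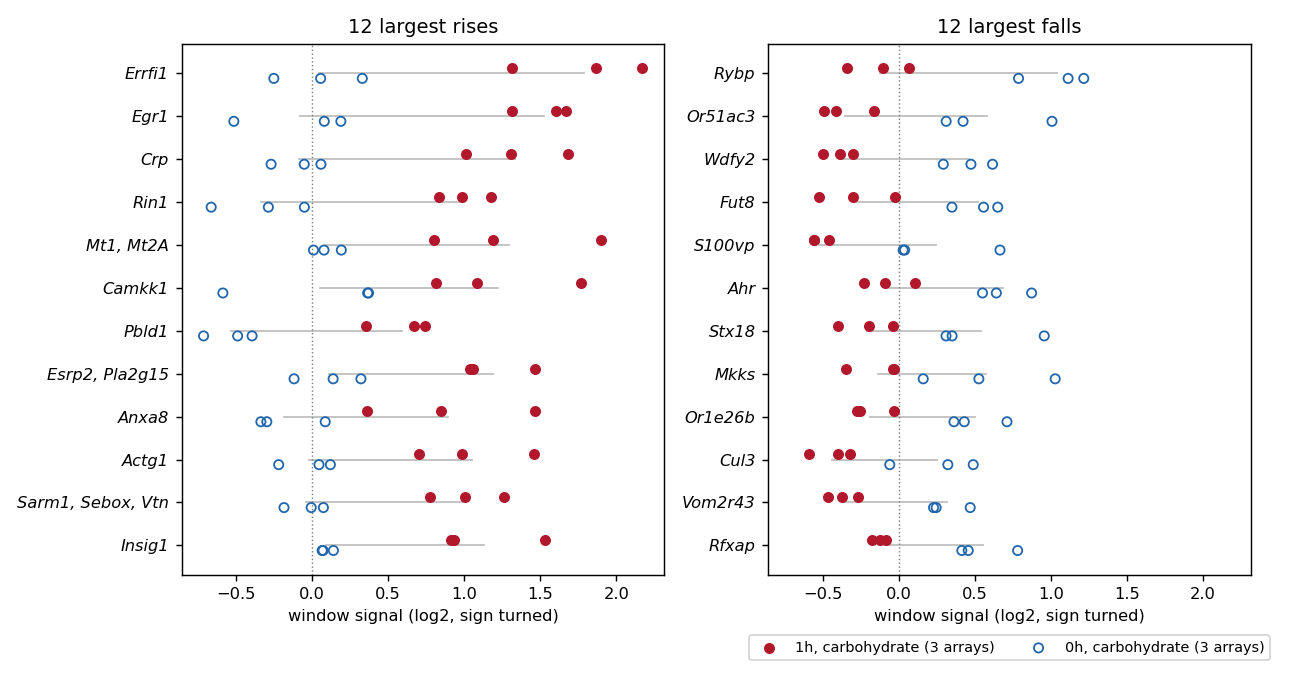
Window signal (log2, sign turned, horizontal axis) on each of the 3 CHO_1h arrays (filled) and 3 CHO_0h arrays (open) for the 12 largest rises and 12 largest falls, with a line joining the group means. Errfi1 lies at 1.32 to 2.17 at 1h and -0.25 to 0.33 at 0h, and Rybp at -0.34 to 0.07 at 1h and 0.79 to 1.22 at 0h.

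**Figure D3:**
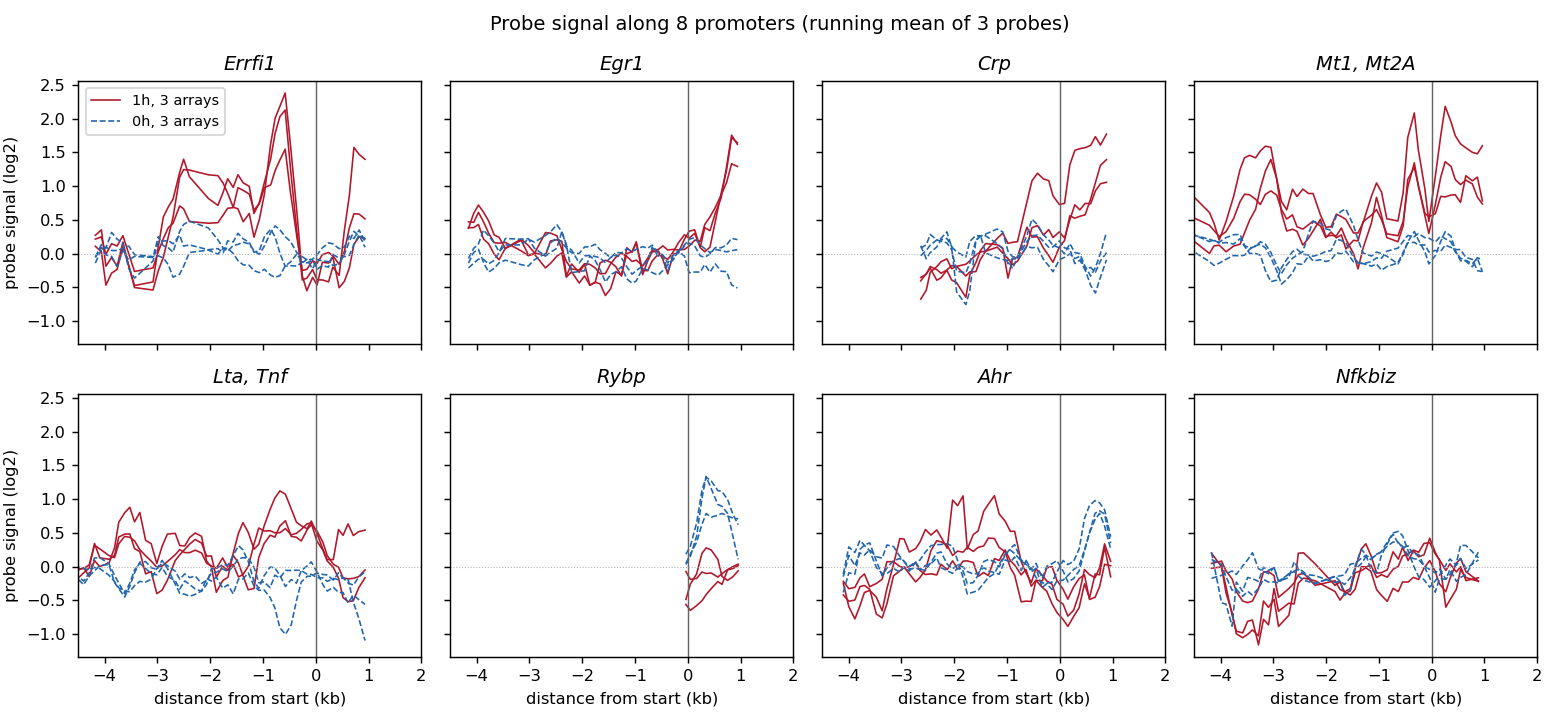
Probe signal (log2, running mean of 3 probes, vertical axis) against distance from the transcription start (kb, horizontal axis) for 8 promoters, with a line for each of the 3 CHO_1h arrays (solid) and 3 CHO_0h arrays (dashed). The 1h arrays part from the 0h arrays upstream of the start at Errfi1, downstream of it at Egr1 and Crp, and lie below them downstream of it at Rybp and Ahr.

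Among members of the NF-kB pathway, 1 of 21 promoters rose and 2 fell, 4.76% and 9.52%, against 8.64% and 2.46% of all promoters. Their median difference was 0.09 log2, against 0.07 over all. The promoter that rose was shared by Myd88, the adaptor of Toll-like and IL-1 receptors, and the peroxisomal thiolases Acaa1a and Acaa1b. It had 0.15, 0.83 and 0.67 at 1h, against -0.05, -0.15 and 0.02 at 0h (0.61 ± 0.15, adjusted p = 0.0136), and its window lay 1810 bp downstream of the nearest start, so the gene it belongs to is uncertain. Ripk1, the kinase that links TNF receptor 1 to NF-kB, had 0.23, -0.06 and -0.08, against 0.35, 0.59 and 0.59 (-0.48 ± 0.14, adjusted p = 0.0254). Nfkbiz, which encodes the atypical inhibitor IkB zeta, had 0.15, -0.27 and 0.08, against 0.32, 0.34 and 0.37 (-0.36 ± 0.11, adjusted p = 0.0415). That window was centred at -596 bp, while the printed stretch with the kappa B match averaged 0.17, -0.02 and 0.34 at 1h, against 0.01, 0.01 and -0.19 at 0h. The groups did not overlap at these 3 promoters. Another 3 members were singled out after their values were seen, for their place in the pathway. The difference was 0.08 ± 0.14 at Rela, which encodes p65 (adjusted p = 0.75), 0.24 ± 0.14 at Nfkb2 (0.236) and -0.32 ± 0.20 at Nfkbia (0.278), and none passed.

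Among genes that NF-kB is known to bind, 8 of 36 promoters rose (22.2%, against 8.64% of all) and 2 fell (5.56%, against 2.46%), with a median difference of 0.14, against 0.07 over all promoters. The counts were 5 and 3 with arrays scaled to the same spread, against 1123 and 898 of all 14540 promoters. They were 8 and 2 after quantile normalization, against 1433 and 701, and 0 and 0 with the run as a term, against 0 and 5. For the mean of the tiled region they were 5 and 5, with a median of 0.02, against 1929 and 3114 of all 14540 promoters. The shared promoter of the cytokine genes Lta and Tnf had 0.63, 0.50 and 0.53 at 1h, against -0.01, -0.09 and -0.17 at 0h (0.64 ± 0.14, adjusted p = 0.00666). Its window was centred at -173 bp from the start of Tnf, over the stretch printed above, which averaged 0.61, 0.54 and 0.75 at 1h, against 0.15, -0.13 and -0.18 at 0h. Ethanol 0h replicate 2 had 0.54 in this window, level with the CHO_1h arrays. Bcl2l1, the survival factor Bcl-xL, had 0.61, 1.07 and 0.43, against -0.18, -0.02 and -0.05 (0.79 ± 0.17, adjusted p = 0.00717). Smaller rises were found at Irf1 and Irf7, interferon regulatory factors (0.60 ± 0.17 and 0.39 ± 0.13), Gadd45b, which restrains JNK signalling (0.56 ± 0.16), Cflar, the caspase 8 inhibitor c-FLIP (0.51 ± 0.17), Nos2, the inducible nitric oxide synthase (0.49 ± 0.14), and the chemokine gene Ccl5 (0.47 ± 0.16), with adjusted p of 0.027 to 0.0482. The falls were at Xiap, a caspase inhibitor (-0.34 ± 0.11), and Bcl2a1, a Bcl-2 relative (-0.38 ± 0.12). At Bcl2a1 the groups overlapped. Il6, Cxcl1, Cxcl2, Ccl2, Vcam1 and Birc3 were among the 26 that did not pass. The sign turned with the run as a term at Bcl2l1, Irf1, Gadd45b and Cflar.

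Of 41 promoters of immediate early genes 13 rose (31.7%, against 8.64% of all promoters) and 0 fell, with a median difference of 0.32 log2, against 0.07 over all. Beside Errfi1 and Egr1, Btg2, an antiproliferative gene, had 0.82, 0.68 and 0.48 at 1h, against -0.05, 0.06 and -0.02 at 0h (0.66 ± 0.13, adjusted p = 0.00468). Gadd45g, a stress response gene, had 0.80, 1.11 and 0.85, against 0.10, 0.20 and -0.14 (0.87 ± 0.20, adjusted p = 0.00866). The 7 others that the naming rule did not pick, chosen after their values were seen, were Igfbp1 (0.97 ± 0.24), Zfp36l1 (0.92 ± 0.24), Junb (0.71 ± 0.22), the phosphatase Dusp1 (0.70 ± 0.16), Jun (0.65 ± 0.16), Ier2 (0.48 ± 0.14) and Klf2 (0.46 ± 0.14). Cebpb, a liver transcription factor (0.69 ± 0.20), and Socs3, the feedback inhibitor of IL-6 signalling (0.55 ± 0.15), completed the 13. The Socs3 window was centred at -4042 bp, and 0 CHO_1h and 0 CHO_0h arrays had a peak for that gene. Fos was at 0.43 ± 0.16 (adjusted p = 0.069), Atf3 at 0.21 ± 0.15 (0.36) and Myc at -0.02 ± 0.14 (0.947), and none of these passed. With arrays scaled to the same spread 12 of the 41 passed upwards, against 1123 of all 14540 promoters. With the run as a term none did and the median difference was -0.12, against -0.03 over all promoters.

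Acute phase and plasma protein genes, which hepatocytes transcribe at high rates, gave 10 rises and 1 fall among 33 promoters (30.3% and 3.03%, against 8.64% and 2.46% of all, median difference 0.34). Beside Crp and the metallothioneins, Alb, the gene of serum albumin, had 0.72, 1.44 and 0.55 at 1h, against -0.12, 0.07 and 0.12 at 0h (0.88 ± 0.19, adjusted p = 0.00627). Serpina3n, a protease inhibitor of the acute phase, had 0.52, 1.04 and 0.66, against 0.06, -0.01 and -0.14 (0.77 ± 0.16, adjusted p = 0.00669). Its window covered the stretch printed above, which averaged 0.43, 0.97 and 0.55 at 1h, against -0.07, -0.07 and -0.05 at 0h. The rises held genes known to be repressed in the acute phase, Alb and the transferrin gene Tf (0.58 ± 0.15), beside induced ones, Crp and Orm1 (0.59 ± 0.14). Tf, Orm1 and Cp were named after their values were seen. The fall was at Cp, which encodes ceruloplasmin (-0.48 ± 0.13, adjusted p = 0.0182). With the run as a term the list's median was -0.10 and 13 of 33 were above 0.

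Cytokine and JAK-STAT genes gave 6 rises and 0 falls among 33 promoters (18.2%, against 8.64% of all). For the mean of the tiled region they gave 4 and 4, against 1929 and 3114 of all 14540 promoters. Il10ra, the IL-10 receptor chain, had 0.57, 0.49 and 0.31 at 1h, against -0.04, -0.37 and -0.10 at 0h (0.63 ± 0.14, adjusted p = 0.00717). Lifr, the receptor of leukaemia inhibitory factor, differed by 0.49 ± 0.14 (0.0232), and the promoter shared by Dapk3, Eef2 and the STAT inhibitor Pias4 by 1.03 ± 0.28 (0.0206). Growth factor signalling gave 5 rises and 0 falls of 40 (12.5%, near the share of all promoters). The counts were 4 and 2 with scaled arrays, against 1123 and 898 of all 14540 promoters. For the mean of the tiled region they were 3 and 8, against 1929 and 3114 of all. The rises included Rin1, Fgfr4, the FGF19 receptor of hepatocytes (0.40 ± 0.11), Hbegf, an EGF receptor ligand (0.46 ± 0.13), and Vegfa (0.46 ± 0.13). The Hbegf window was centred at -3544 bp, and 0 CHO_1h arrays and 1 CHO_0h array had a peak for that gene. Fgfr4 had 0.31, 0.35 and 0.34 at 1h, against 0.01, -0.11 and -0.10 at 0h, with no overlap. Cell cycle genes gave 3 rises and 2 falls of 28 (10.7% and 7.14%, against 8.64% and 2.46% of all), with rises at the inhibitor Cdkn1c (0.62 ± 0.18), the replication factor Mcm5 (0.41 ± 0.13) and cyclin E1, Ccne1 (0.57 ± 0.18), and falls at the inhibitors Cdkn2a (-0.53 ± 0.12) and, named after its value was seen, Cdkn2c (-0.42 ± 0.14). Apoptosis genes gave 3 rises and 1 fall of 22 (13.6% and 4.55%), with rises at the pore former Bax (0.72 ± 0.17), cytochrome c, Cycs (0.56 ± 0.16), and the Dapk3 promoter, and a fall at Casp1, the inflammasome caspase (-0.54 ± 0.16).

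Genes of amino acid and glucose metabolism had the highest share of rises of the 20 lists, with 11 of 32 promoters up (34.4%, against 8.64% of all), 0 down and a median difference of 0.43. After quantile normalization 14 of the 32 rose. With scaled arrays 7 did, against 10 of 33 plasma protein and 12 of 41 immediate early promoters, so the list did not lead there. With the run as a term 0 passed and the median was -0.07, against -0.03 over all promoters. Hpd and Tdo2, enzymes of tyrosine and tryptophan breakdown, had 0.61, 0.92 and 0.52, and 0.66, 1.30 and 0.50 at 1h, against -0.19, 0.05 and -0.09, and 0.16, 0.13 and 0.09 at 0h (0.76 ± 0.18 and 0.70 ± 0.17). Sds, serine dehydratase, differed by 0.77 ± 0.19 and Cbs, cystathionine beta-synthase, by 0.62 ± 0.16. Lipid metabolism gave 8 rises and 0 falls of 37 (21.6%). For the mean of the tiled region it gave 7 and 5, against 1929 and 3114 of all 14540 promoters. Beside Insig1, Acacb, the acetyl-CoA carboxylase that controls fatty acid oxidation, had 0.50, 0.56 and 0.48, against -0.31, -0.26 and -0.05 (0.72 ± 0.13, adjusted p = 0.00269). The Acacb stretch printed above averaged 0.62, 0.71 and 0.61 at 1h, against -0.47, -0.28 and -0.26 at 0h. Plin2, a lipid droplet coat protein, differed by 0.59 ± 0.15 and Ppara, the receptor that drives fatty acid oxidation, by 0.57 ± 0.15. Alcohol and xenobiotic metabolism gave 4 rises and 2 falls of 35 (11.4% and 5.71%, against 8.64% and 2.46% of all). For the mean of the tiled region it gave 2 and 5, against 1929 and 3114 of all 14540 promoters. Among its calls were Gstm1, a glutathione transferase, at 0.94 ± 0.20, Sult1a1, a sulfotransferase, at 0.61 ± 0.17 and the glucuronosyltransferase Ugt2b1 at -0.49 ± 0.15. Liver transcription factors gave 7 rises and 0 falls of 29 (24.1%), among them Atf4, of the amino acid response (0.83 ± 0.20), Nr1d1, a clock repressor (0.75 ± 0.21), Nr0b2, the bile acid-induced repressor SHP (0.57 ± 0.16), and Hnf4a (0.53 ± 0.17).

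**Figure D4:**
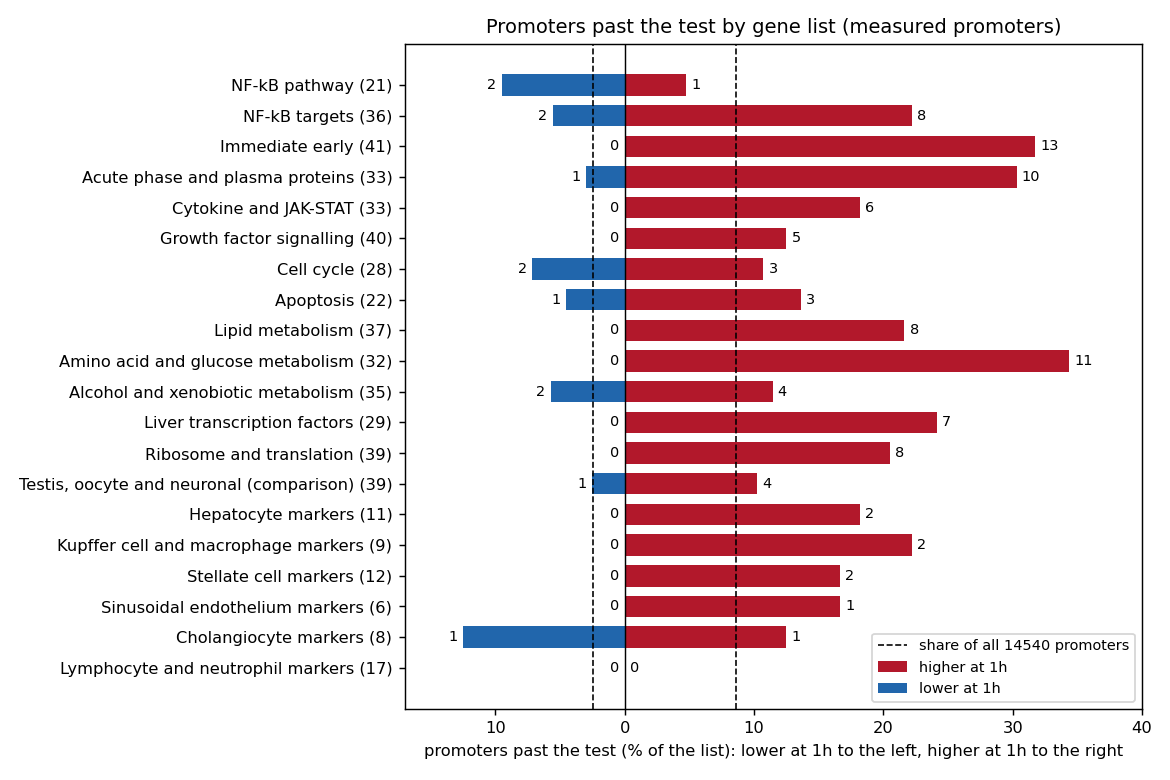
Share of each list's promoters past the test (%, horizontal axis), higher at 1h to the right and lower at 1h to the left, with the counts beside the bars and the number of measured promoters beside the name. Dashed lines mark the shares of all 14540 promoters, 8.64% and 2.46%.

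Lists with no tie to NF-kB were measured the same way. Ribosome and translation genes, transcribed in all cells, gave 8 rises and 0 falls of 39 (20.5%, median 0.27), among them Rplp0 (0.63 ± 0.14), Rpl10 (0.66 ± 0.16) and the promoter of Commd5 and Rpl8 (1.00 ± 0.23). Genes of testis, oocyte and neurons gave 4 rises and 1 fall of 39 (10.3% and 2.56%), close to the shares of all promoters, with Zp3, Th and Tekt1 among the rises. Marker genes of liver cell types gave 2 rises of 11 for hepatocytes (18.2%, Alb and Hnf4a) and 2 of 9 for Kupffer cells (22.2%, C1qb and the promoter of C1qa and C1qc). Stellate cell markers gave 2 of 12 (16.7%, Pdgfrb and Gfap) and those of sinusoidal endothelium 1 of 6 (16.7%, Tie1). Cholangiocyte markers gave 1 rise (Muc1) and 1 fall (Cftr) of 8, 12.5% each. Lymphocyte and neutrophil markers gave 0 calls of 17 in limma, and 1 of them had a p below 0.05 before adjustment. Over all promoters the shares were 8.64% and 2.46%, and lists of 6 to 17 promoters are too small to be told apart from them. The median differences of these cell type lists were 0.04 to 0.23, and promoter occupancy does not measure how many cells of a type were present. Their part in the other results was not tested. Among gene families taken from the symbols, with values known, vomeronasal receptors gave 0 rises and 19 falls of 110 (17.3%, median -0.27) and olfactory receptors 72 rises and 41 falls of 1164 (6.19% and 3.52%, against 8.64% and 2.46% of all). The olfactory count was 69 and 80 with scaled arrays, against 1123 and 898 of all 14540 promoters. For the mean of the tiled region it was 50 and 757, against 1929 and 3114 of all. The vomeronasal count was 0 and 34 with scaled arrays. After quantile normalization it was 0 and 29, against 1433 and 701 of all, and with the run as a term 0 and 0, against 0 and 5. Members of these families resemble each other in sequence, so their probes may share signal, which was not tested.

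The authors' own peak lists gave a second reading of the same arrays. The CHO_1h arrays had 4881, 5358 and 6052 peaks, and the CHO_0h arrays 2874, 4069 and 6077 (exact permutation test, two-sided, p = 0.4, where 3 against 3 cannot go below 0.1). Peaks centred within 500 bp of a start made up 21.9, 20.0 and 22.1% at 1h, against 11.4, 22.2 and 15.6% at 0h (exact permutation p = 0.4). At a false discovery rate of at most 0.05 the shares were 24.2, 23.2 and 23.8% at 1h, against 12.1, 22.0 and 17.8% at 0h, without overlap (exact permutation p = 0.1, the smallest possible). Within 1000 bp they averaged 48.0% at 1h and 50.6% at 0h (p = 0.8 by the exact permutation test). The smallest adjusted p over 10 such measures was 0.625. A gene had a peak on all 3 CHO_1h arrays and on no CHO_0h array in 830 cases, 5.78% of the 14356 genes with a peak on any array of the series, and the reverse held for 352 (2.45%). A peak on all 6 arrays was found for 125 genes (0.871%). Of the promoters of the 830, 778 had a window, and their median difference was 0.42 log2, with 332 that rose and 1 that fell. The 334 windows of the 352 had a median of -0.22, with 42 that fell and 2 that rose. The gained and lost peaks come from the same probes, and so do not test the windows independently.

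Egr1, Crp, Rin1, Mt2A, Anxa8 and Vtn had the largest differences among gained genes. At Egr1 the authors' peak lay 905 bp downstream of the start on all 3 CHO_1h arrays, with scores of 1.49, 1.12 and 1.24, and at Mt2A 131 bp downstream, with 1.08, 1.53 and 0.84. At Rybp the lost peak lay 435 to 488 bp downstream, with scores of 0.79, 1.10 and 0.94 on the CHO_0h arrays. Other lost genes with large differences were Or1e26b (-0.69 ± 0.14), Ttbk2, a kinase of ciliogenesis (-0.65 ± 0.19), Wwp1, a ubiquitin ligase (-0.64 ± 0.16), and Enah, an actin regulator (-0.64 ± 0.16). Gained genes were 4 of 37 NF-kB targets (Tnf, Bcl2l1, Irf7 and Ccl5) and 5 of 41 immediate early genes, with Jun and Nr4a1. They were 7 of 33 plasma protein genes, with Ambp, Ahsg, Itih4 and Orm1, against 5.78% of all genes. Lost genes included Pparg and Ppargc1a, 2 of 37 lipid metabolism genes, of which 9 were gained. Over all genes 2.45% were lost, a share at which lists of this size hold few. Most of the 20 lists had no lost gene, the NF-kB target and immediate early lists among them.

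Averaged over the promoters that rose, probe signal along the tiled regions was higher at 1h in each 250 bp step and not only near the start. The windows lay at different distances, 29.8% of those with a named start over 2 kb upstream of it. The mean therefore does not show that single promoters rose over their whole length. In the window with the lowest mean, 369 of the 1256 were higher at 1h, against 2402 of all 14540 promoters. The mean probe signal of the promoters that rose was 0.12 at 1h and -0.04 at 0h in the 250 bp step from -3500 bp. At 500 to 750 bp downstream it was 0.22 at 1h and -0.04 at 0h. The difference was 0.12 to 0.16 in each 250 bp step upstream of the start and 0.21 to 0.25 downstream of it. The mean of the promoters that fell was lower at 1h in each step, by 0.17 to 0.32. Over all promoters with a single start the difference was between -0.07 and 0.04. Windows of the 1256 lay within 500 bp of a start in 21.7% of cases, those of the 358 in 20.5% and those of all promoters in 18.6%, with medians at -631, -777 and -872 bp.

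**Figure D5:**
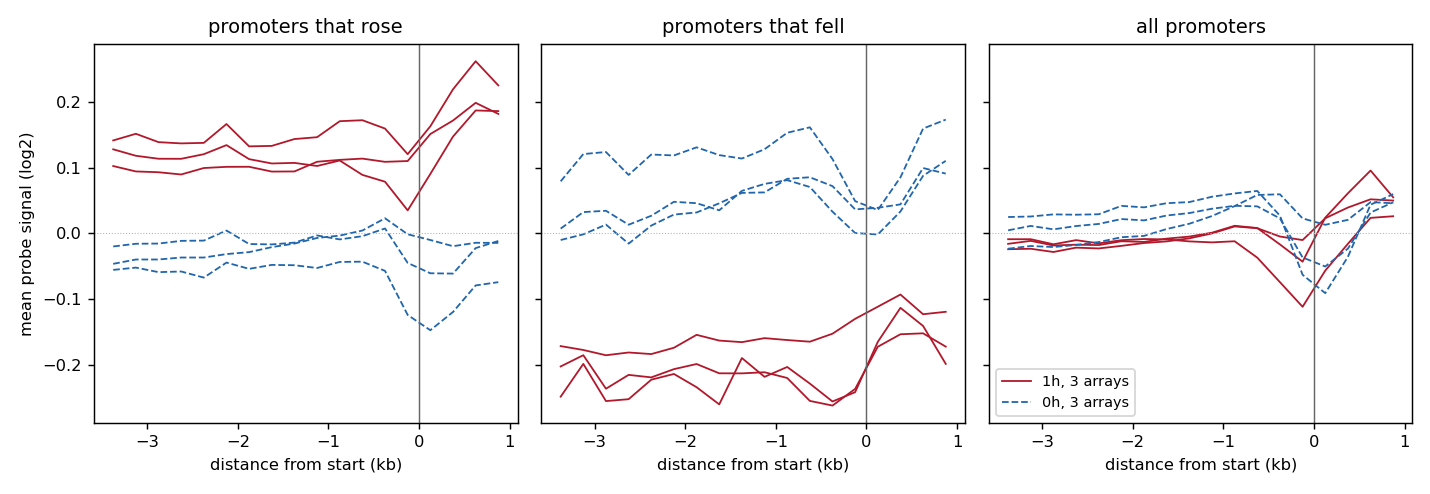
Mean probe signal (log2, vertical axis) in 250 bp steps of distance from the transcription start (kb, horizontal axis) for promoters with a single start that rose, that fell, and for all, with a line for each CHO_1h array (solid) and CHO_0h array (dashed). The 1h lines lie above the 0h lines over the whole region for promoters that rose and below them for promoters that fell, a split that the choice of these promoters favours.

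The ethanol diet gave the same contrast in other animals. There 36 promoters rose and 4 fell (0.248% and 0.0275%), and the difference between the diets passed at 0 of 14540 promoters in limma. Without adjustment 1371 promoters had a p under 0.05, and the lowest adjusted p was 0.086. Of the 1256 promoters that rose in carbohydrate-fed rats 89.9% had a difference above 0 in ethanol-fed rats, with a median of 0.23, against 59.0% and 0.05 over all promoters. Of the 358 that fell 21.8% had one. Ethanol 0h replicates 1 and 3 lay in run 1, and the ethanol 1h arrays in runs 2 and 3. A shared direction in the 2 diets therefore cannot be told apart from array run. On the slide that held ethanol arrays of both times, 36.5% of the 1256 were higher at 1h, against 38.6% of all promoters. Egr1, the metallothionein promoter, Insig1, Btg2, Plin2 and Rpl10 also rose in ethanol-fed rats (1.34 ± 0.28, 1.21 ± 0.23, 1.02 ± 0.20, 0.82 ± 0.13, 0.64 ± 0.15 and 0.87 ± 0.16), and Cul3 also fell (-0.89 ± 0.14). Camkk1 and Pbld1 were at -0.05 ± 0.29 and -0.12 ± 0.18 in ethanol-fed rats, though the diet difference did not pass there (adjusted p = 0.432 and 0.201). The 0h ethanol array of run 2 enters these values, and within the slide it shared with ethanol 1h replicate 1 Egr1 was 0.86 higher at 1h and Errfi1 0.25 higher, while Crp was 0.14 lower.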

How the data were processed

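Per the file headers, the authors deposited 1 table of log2 ratios per probe for the 20 arrays, and per array a peak list with a score per peak and a false discovery rate, a q-value of up to 0.19961. How these were scaled, which peak caller was used and the genome build are not given in the sources used here. The values were multiplied by -1 and centred on each array's median. Probes at most 1000 bp apart formed 14723 tiled regions, of which 14540 had a 500 bp window of at least 4 probes; 13257 were named through the region's RefSeq accessions (13678 of 14678 matched, GRCr8 symbols only). The 6 group means of the 20 arrays were fitted in limma 3.58.1 (R 4.3.3), with the contrast CHO_1h minus CHO_0h, a variance trend and Benjamini-Hochberg adjustment over all promoters. A threshold of 0.05 was used. Errors after ± are standard errors (n = 3 arrays a group), and the number of arrays limits the precision. Simulated data with known changes gave back 18% of changes of 0.4 log2 and 90% of changes of 0.8, and 10 false calls among 14540 promoters. The simulated noise was independent, with the same spread on each array and no effect of run, slide or position. These numbers therefore do not give the false calls of the real contrast.

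Named promoters were the 12 largest rises and falls without overlap of the arrays, the 6 largest among gained and lost peaks, and those past the test in each list, up to 4 by p (all of them in the NF-kB lists); others are said to be chosen after their values were seen. The promoters and the 20 lists were chosen with earlier results of these data known. Values were computed with Python 3.11.15, numpy 2.4.6, pandas 2.3.3 and scipy 1.17.1. Alternatives left out each replicate, changed the scaling, window and blocks, added run or position, and used a stricter peak threshold. Some promoters that met the naming rule are not reported here.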

Additional observations from a re-analysis of the deposited data

How the results depend on the processing

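Counts of promoters higher and lower at 1h, 1256 and 358, became 979 and 180 with the 6 compared arrays alone, 0 and 5 with the array run as a term, 0 and 0 with sub-array position as a term, 1123 and 898 with arrays scaled to the same spread, 1433 and 701 after quantile normalization, 3058 and 647 with array weights, 1929 and 3114 for the mean of the tiled region, 84 and 751 for the window with the lowest mean, and 1673 and 563 in a 1000 bp window. A replicate block on the 6 compared arrays gave 531 and 43. Deviations of same-numbered arrays from their group means correlated at 0.094, -0.153 and -0.086. CHO_1h replicate 1 and CHO_0h replicate 2, which shared an animal number, gave only 0.1. These correlations therefore cannot decide whether samples are paired. Leaving out 1 array gave 240 to 1190 higher and 66 to 229 lower. The diet difference passed at 2 promoters with the run as a term. The genes gained by peaks numbered 296 at a false discovery rate of at most 0.05 and 2154 with a peak on at least 2 of 3 arrays, and the genes lost by peaks 63 and 1417. The difference in the share of peaks near a start, CHO_1h minus CHO_0h, was 4.94 percentage points within 500 bp, 6.46 at a false discovery rate of at most 0.05 and -2.63 within 1000 bp. For the median difference at the promoters that rose, the ethanol pair of 1 slide and animal gave -0.069. Of the 86 promoters named here, quantile normalization and the animal as a random block changed no call, array weights ended 1, scaling and eBayes without a trend 4 each, the slide as a random block 7, the 6 compared arrays alone 11, the window chosen on the 14 other arrays 17, a 1000 bp window 22, the mean of the tiled region 29, the replicate block 29, and the window with the lowest mean 37, beside the reversals. Leaving out CHO_1h replicate 2 ended 54 and each other array 12 to 28. The run and position terms ended the call of each. The cause was not tested.

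In log2, the direction reversed with the run as a term at Esrp2/Pla2g15 -0.28, Sarm1/Sebox/Vtn -0.14, Insig1 -0.26, Bcl2l1 -0.13, Irf1 -0.30, Gadd45b -0.12, Cflar -0.13, Gadd45g -0.36, Dapk3/Eef2/Pias4 -0.47, Lifr -0.01, Socs3 -0.12, Hbegf -0.16, Vegfa -0.07, Cdkn1c -0.15, Mcm5 -0.15, Bax -0.23, Cycs -0.13, Casp1 0.08, Hpd -0.08, Sult1a1 -0.29, Atf4 -0.27, Nr1d1 -0.04, Commd5/Rpl8 -0.28, Th -0.30 and Muc1 -0.21. It reversed in the window with the lowest mean, which lies elsewhere in the region, at Errfi1 -0.22, Egr1 -0.27, Crp -0.14, Camkk1 -0.25, Anxa8 -0.19, Actg1 -0.13, Sarm1/Sebox/Vtn -0.20, Insig1 -0.13, Acaa1a/Acaa1b/Myd88 -0.48, Bcl2l1 -0.14, Nos2 -0.22, Irf1 -0.35, Ccl5 -0.13, Cflar -0.09, Gadd45g -0.05, Alb -0.12, Serpina3n -0.32, Il10ra -0.26, Dapk3/Eef2/Pias4 -0.21, Lifr -0.26, Socs3 -0.26, Hbegf -0.30, Vegfa -0.20, Cdkn1c -0.30, Ccne1 -0.14, Bax -0.25, Cycs -0.43, Plin2 -0.20, Ppara -0.29, Tdo2 -0.44, Sds -0.13, Cbs -0.30, Gstm1 -0.04, Sult1a1 -0.16, Nr0b2 -0.20, Cebpb -0.23, Rplp0 -0.05, Commd5/Rpl8 -0.02, Rpl10 -0.34, Zp3 -0.22, Hnf4a -0.03, C1qb -0.44, C1qa/C1qc -0.23, Pdgfrb -0.29, Gfap -0.10, Tie1 -0.31 and Muc1 -0.25. It reversed in a 1000 bp window at Wdfy2 0.13, Ahr 0.29 and Vom2r43 0.20, for the mean of the tiled region at Cycs -0.04 and Tdo2 -0.03, and in the window chosen on the 14 other arrays at Ppara -0.08. Neither reference channel nor genome build was settled, and 3 arrays a group limit the precision.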
